A study of Homo sapiens with 10 samples.

Results

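RNA sequencing compared p53 siRNA with control siRNA in 3 human lung cancer cell lines, each with a different p53 mutation. The mutation is V157F in NCI-H2087 cells, R158L in NCI-H441 cells and R158P in NCI-H2110 cells. The change shared by the lines was measured within 5 pairs of libraries, each pair being 1 p53 siRNA library and the control siRNA library of the same line and replicate number. NCI-H2087 and NCI-H441 gave 2 pairs each, replicates 1 and 2, and NCI-H2110 gave 1 pair, labelled replicate 2, so all 10 libraries of the study were used. Every group was cells of an established line after transfection, and per the labels the groups of a line differed by the siRNA alone: no untransfected cells, no wild-type p53 line and no second siRNA are among them. Sample titles speak of a knockout, but the protocol and the experiment label name an siRNA, so the treatment is called a knockdown here. Of 57736 gene IDs in the count table, 17978 had enough counts to be tested. Each mutation is held by 1 line, so mutation and line cannot be told apart, and the labels do not say whether replicates were separate cultures, so the p-values cover the spread among these libraries, which may be technical.

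The p53 protein is a transcription factor that binds DNA and, when intact, activates genes of cell cycle arrest and cell death. The mutations of these lines lie in its DNA-binding domain, the part most often altered in lung cancer. Mutant forms of p53 often accumulate in tumour cells and have been described as acting on genes through other transcription factors, so that removal of a mutant form by siRNA is a common way to ask which genes depend on it.

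Depth ran from 18336672 to 25810934 counts per library. Levels are given as CPM, a gene's counts relative to its library's total, with totals scaled by the trimmed mean of M-values (TMM), and a log2 ratio is p53 siRNA over control siRNA in 1 pair, with a prior count of 2 added. Replicates differed beyond counting noise (chi-square of 19.7 to 58.8 per gene). NKX2-1, a transcription factor of lung epithelium, had 622 to 8954 counts in the 10 libraries. Among 10 fibroblast markers DCN, PDGFRA and THY1 had at most 1 count in any library, but the collagen gene COL1A1 had 264 to 1125, ACTA2 49 to 101, and LUM 675 to 939 in NCI-H441. The summed level of the list was 13.9 to 67.4 CPM with p53 siRNA and 18.6 to 71.3 CPM with control siRNA. Summed levels of marker lists, here and below, use library totals without TMM. PTPRC, the pan-leukocyte antigen, had at most 5 counts and HBB had 0. The list of immune and endothelial markers summed to 24.96 to 169.7 CPM with control siRNA and 37.9 to 349 CPM with p53 siRNA, mainly from CD68, a lysosomal protein, with 377 to 8592 counts, and KDR, an endothelial receptor, with 0 to 1446. CD68 had 2196 and 3547 counts in the NCI-H2087 controls against 6003 and 8592 with p53 siRNA, and the part of these markers in the results was not tested. In RNA from whole cultures, fewer cells of a type and less RNA per cell cannot be told apart. Nuclear pseudogenes of mitochondrial genes took 6.47% and 7.25% of the counts in the control libraries of NCI-H2087 and 3.19% and 3.15% with p53 siRNA. The same share was 6.96% and 5.04% against 6.30% and 5.74% in NCI-H441, and 13.1% against 13.8% in NCI-H2110, and its part in the results was not tested.

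Few genes passed the test for a shared change in the main fit. In a paired edgeR quasi-likelihood fit, 71 of 17978 genes (0.395%) were called at a Benjamini-Hochberg adjusted p below 0.05: 59 rose with p53 siRNA (0.328%) and 12 fell (0.0667%). Without adjustment, 2829 genes (15.7%) had p below 0.05. Among the called genes 67 were protein coding, 42 changed at least 2-fold, and 60 had the same direction in all 5 pairs. Over all 17978 tested, 14020 were protein coding, 913 changed at least 2-fold and 2356 (13.1%) had the same direction in all 5 pairs. The calls were made from these same values, so size and direction are no separate result. Called genes were better expressed than most: the median level of protein coding genes was 38.5 CPM for the 55 that rose and 40.7 CPM for the 12 that fell, against 21.2 CPM over all 14020 tested. Their longest annotated transcripts had median lengths of 3983 and 3240 bases, against 3626 bases over all.

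The number called rested on single pairs. Leaving out NCI-H2087 replicate 1 left 1 gene called, and leaving out NCI-H2087 replicate 2, NCI-H441 replicate 1, NCI-H441 replicate 2 or the NCI-H2110 pair left 35, 46, 64 or 22. Of 70 called genes checked one by one, all kept their direction whichever pair was left out, and 0 kept the call without NCI-H2087 replicate 1. Each of these fits reuses the other pairs that made the call, so a kept direction has little weight. CMTM6, ANXA2, IL15RA, EFCAB14 and TULP3 kept it in each of the other 4 fits, and 13 genes kept it in none. The count was also far higher with other choices: 627 genes by DESeq2's Wald test and 1385 without the filter on low counts. It was 1633 when 1 siRNA change per line was fitted (2 residual degrees of freedom) and the 3 lines were averaged with equal weight.

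NCI-H2087 changed most. Over the 9332 genes whose log2 CPM averaged 3 or more, the standard deviation of the log2 ratio was 0.529 and 0.615 for the NCI-H2087 pairs, 0.227 and 0.383 for the NCI-H441 pairs and 0.338 for the NCI-H2110 pair. In NCI-H2087 6.15% and 9.02% of these genes moved by over 1 log2 unit, whereas the NCI-H441 pairs had 0.236% and 1.01% and the NCI-H2110 pair 0.911%. Across the same genes the change in NCI-H2087 correlated weakly with that in NCI-H441 (Pearson r = 0.31) and in NCI-H2110 (r = 0.23), and the changes of NCI-H441 and NCI-H2110 did not run together (r = -0.022). Genes are not independent replicates, so these values describe the libraries only. Among the 56 called genes that reached 1 CPM in some library of each line, the largest change was in NCI-H2087 for 49 genes, in NCI-H441 for 3 genes and in NCI-H2110 for 4. Over all 17978 genes tested, at any level, it was in NCI-H2087 for 8794, in NCI-H441 for 3969 and in NCI-H2110 for 5215. The 56 were called in a fit that holds these same pairs, so their count is not independent of that choice.

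**Figure D1:**
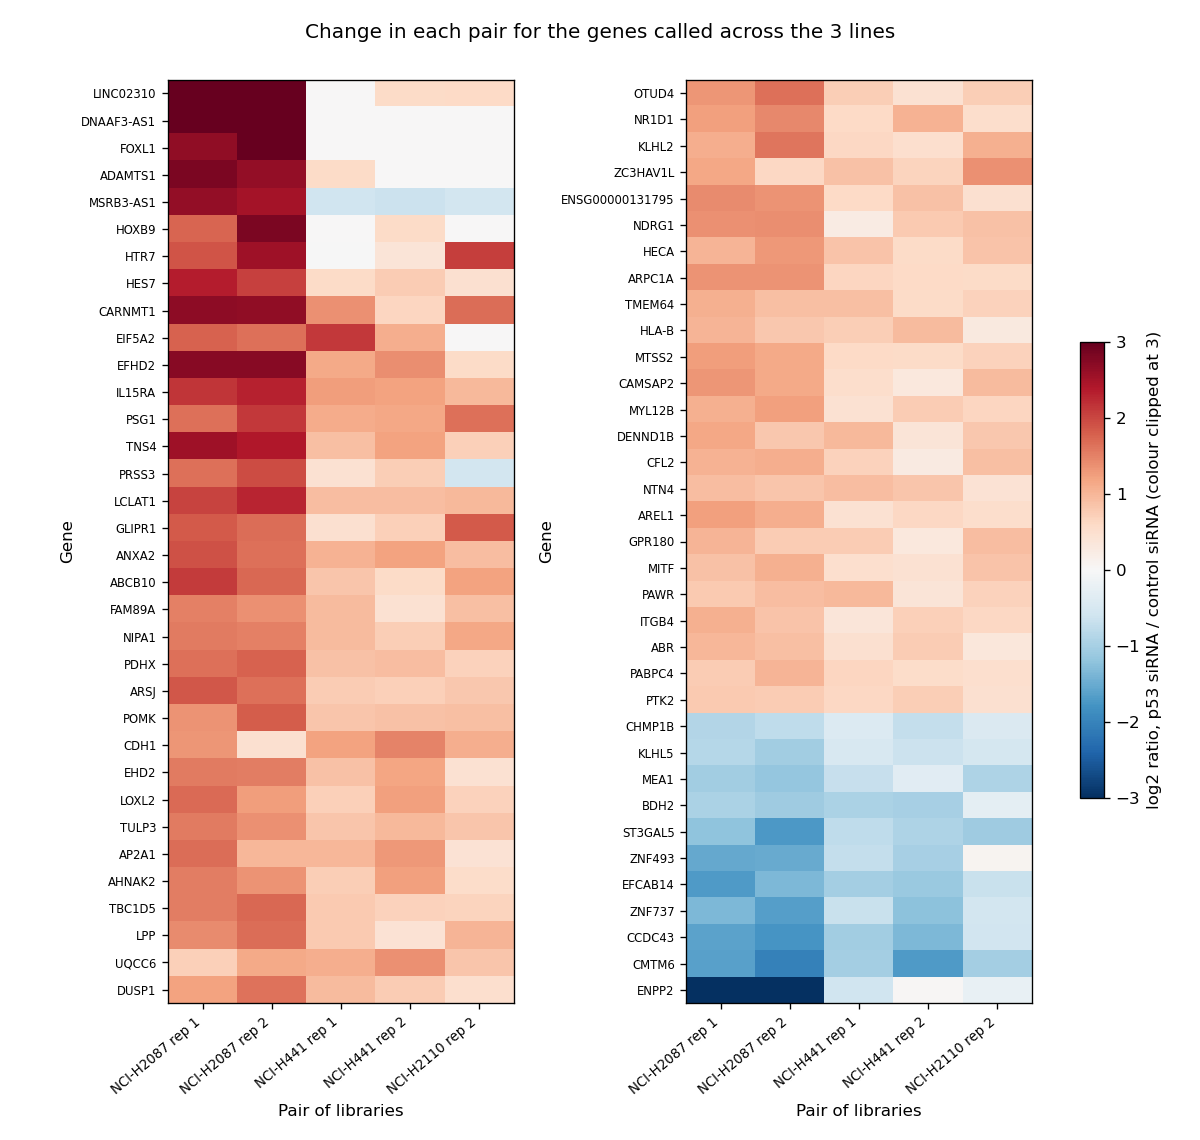
Log2 ratio of p53 siRNA over control siRNA in each of the 5 pairs (columns) for 69 called genes (rows, ordered by fitted change), with red higher, blue lower and colour clipped at 3 log2 units in either direction. Most rows keep 1 colour across the columns and are darkest in the NCI-H2087 pairs, while rows such as DNAAF3-AS1 and FOXL1 have colour in those pairs alone.

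Taking 59 called genes with the same direction in all 5 pairs, the median size of the change was 1.33 and 1.35 log2 units in the NCI-H2087 pairs, 0.79 and 0.76 in the NCI-H441 pairs and 0.71 in the NCI-H2110 pair. A change of at least 1 log2 unit was reached by 49 and 46 of them in NCI-H2087, by 10 and 16 in NCI-H441 and by 11 in NCI-H2110. Of all genes tested, 1 was higher by at least 1 log2 unit in every pair (0.00556%), the pregnancy-specific glycoprotein gene PSG1, and 2 were lower by as much (0.0111%), CMTM6 among them. These sizes describe genes chosen for the change itself.

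Among the rises, the most abundant gene was ANXA2 (ENSG00000182718), which encodes annexin A2, a calcium-dependent protein that links membranes to actin. Its level went from 868 and 796 CPM to 3242 and 2484 CPM in NCI-H2087, from 779 and 929 to 1607 and 2133 in NCI-H441 and from 506 to 959.5 in NCI-H2110. Every p53 siRNA library lay above its own line's controls, and the fitted change was 1.34 ± 0.16 log2 units (SE, 5 pairs, edgeR adjusted p = 0.0193). Without both pairs of NCI-H2087 the fit still called it, at 1.06 with an edgeR adjusted p of 0.00381. With 1 pair left out at a time it kept its call in 4 of 5 fits, and lost it without NCI-H2087 replicate 1. Reads of its pseudogenes may be shared with it, which the count table does not resolve.

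The start regions of some genes called for the shared change, 3 rises and the fall KLHL5, are shown so that the letters of candidate motifs can be read in them. The sequences are RefSeq promoter entries on GRCh38.p14, 250 bases before to 50 after a transcription start, 5′ to 3′ on the gene's strand, with 1 matched motif in capitals. ANXA2 lies at chr15:60397937-60398236 on the minus strand and ARSJ, an arylsulfatase gene, at chr4:113979598-113979897 on the minus strand. Each holds a match to the AP-1 motif TGANTCA, at 127 and 82 bases before the start respectively. The CARNMT1 entry printed lies at chr9:75028244-75028543 on the minus strand and KLHL5 at chr4:39061982-39062281 on the plus strand. Each holds a match to the p53 half-site, 53 bases before the start in CARNMT1 and farther upstream in KLHL5. CARNMT1 has 3 entries, and only the one printed held the half-site. The KLHL5 entry also holds the TEAD motif CATTCC, left in lower case, 227 bases before the start.
ANXA2: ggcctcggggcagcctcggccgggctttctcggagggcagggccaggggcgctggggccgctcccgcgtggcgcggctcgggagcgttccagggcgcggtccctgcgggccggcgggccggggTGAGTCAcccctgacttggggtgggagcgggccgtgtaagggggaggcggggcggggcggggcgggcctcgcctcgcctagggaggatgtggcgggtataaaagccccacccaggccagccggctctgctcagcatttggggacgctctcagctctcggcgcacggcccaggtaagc
ARSJ: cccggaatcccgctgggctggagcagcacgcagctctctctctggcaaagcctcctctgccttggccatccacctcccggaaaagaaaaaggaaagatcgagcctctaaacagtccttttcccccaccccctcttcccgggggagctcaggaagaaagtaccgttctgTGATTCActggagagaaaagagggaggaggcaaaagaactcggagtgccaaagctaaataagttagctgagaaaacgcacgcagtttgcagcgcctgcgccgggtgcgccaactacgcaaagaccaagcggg
CARNMT1: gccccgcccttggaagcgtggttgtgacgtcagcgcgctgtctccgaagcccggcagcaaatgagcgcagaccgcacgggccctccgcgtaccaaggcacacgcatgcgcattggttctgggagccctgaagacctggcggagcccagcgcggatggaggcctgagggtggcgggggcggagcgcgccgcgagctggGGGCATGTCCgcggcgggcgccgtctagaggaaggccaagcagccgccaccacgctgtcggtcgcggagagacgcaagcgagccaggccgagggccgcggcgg
KLHL5: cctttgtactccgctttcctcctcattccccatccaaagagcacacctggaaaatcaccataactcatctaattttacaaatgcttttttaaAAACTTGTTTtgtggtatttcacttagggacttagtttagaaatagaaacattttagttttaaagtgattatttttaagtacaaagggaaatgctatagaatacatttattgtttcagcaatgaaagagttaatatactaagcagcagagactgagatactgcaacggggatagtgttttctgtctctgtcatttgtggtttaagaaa

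Promoter entries were found for 42 of the 59 genes that rose, for 10 of the genes that fell and for 12238 genes tested in all. On either strand, TGANTCA occurred in 8 of the 42 (19.0%), in 0 of the 10 and in 7.55% of all. The p53 half-site occurred in 7 of the 42 (16.7%), in 1 of the 10 and in 7.78% of all. The TEAD motif CATTCC occurred in 6 of the 42 (14.3%), in 2 of the 10 and in 15.3% of all. Genes with several start entries have more chances of a match: counted by entry, TGANTCA was in 16.9% of those of the rises against 5.70%, and the half-site in 11.3% against 5.87%. A match is a description of the letters and no sign of binding, and the shares were not tested.

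Several of the called rises encode proteins of the actin cytoskeleton, focal adhesions or cell-matrix attachment, a grouping made after the values were seen. TNS4, a tensin family member that binds integrin tails, went from 15.7 and 12.8 CPM to 91.6 and 67.6 in NCI-H2087, from 15.3 and 15.6 to 28.9 and 36.1 in NCI-H441 and from 121 to 198 in NCI-H2110. The arms of TNS4 were apart in each line, with a fitted change of 1.54 ± 0.26 (edgeR adjusted p = 0.0376). EFHD2, a calcium-binding protein of actin filaments, went from 18.2 and 17.4 to 120 and 115 CPM in NCI-H2087, from 30.9 and 34.1 to 68.1 and 90.5 in NCI-H441 and from 23.1 to 34.6 in NCI-H2110. Its change was 1.71 ± 0.30 (edgeR adjusted p = 0.0385), and it was strongest in NCI-H2087 and weakest in NCI-H2110. PTK2, the focal adhesion kinase, rose by 0.68 ± 0.11 (edgeR adjusted p = 0.0312), with ratios of 0.78, 0.76, 0.63, 0.74 and 0.47 in the 5 pairs. ITGB4, the integrin beta 4 subunit of hemidesmosomes, rose by 0.72 ± 0.12 (edgeR adjusted p = 0.0376), from 23.2 and 24.4 to 48.8 and 44.5 CPM in NCI-H2087, from 82.7 and 76.0 to 106 and 124 in NCI-H441 and from 36.0 to 55.6 in NCI-H2110.

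Further rises of this kind, taken from the called genes after their values were seen, were LPP, ARPC1A, CFL2, MYL12B, AHNAK2, MTSS2, LOXL2 and NTN4. LPP, a focal adhesion protein of the zyxin family, rose by 1.07 ± 0.17, and ARPC1A, a subunit of the actin-branching Arp2/3 complex, by 0.90 ± 0.16. CFL2, an actin-severing cofilin, rose by 0.80 ± 0.14 and MYL12B, a myosin regulatory light chain, by 0.83 ± 0.14. Each had the same direction in all 5 pairs. LOXL2, a lysyl oxidase that crosslinks collagen, went from 9.54 and 6.90 CPM to 31.1 and 16.6 in NCI-H2087, from 9.44 and 7.69 to 15.6 and 18.1 in NCI-H441 and from 28.1 to 45.3 in NCI-H2110. NTN4, a netrin of basement membranes, rose by 0.79 ± 0.12, with 0.93, 0.82, 0.93, 0.83 and 0.43 log2 units in the pairs.

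CDH1, which encodes E-cadherin of epithelial junctions, was among the rises whose change was largest outside NCI-H2087. It went from 82.6 and 90.0 CPM to 206 and 127 in NCI-H2087, from 484 and 501 to 1125 and 1416 in NCI-H441 and from 86.4 to 183 in NCI-H2110. The control and p53 siRNA libraries did not overlap in any line, and the change was 1.12 ± 0.15 (edgeR adjusted p = 0.0206). Without NCI-H2087 it was 1.27 with an edgeR adjusted p of 0.00127. With 1 pair left out at a time CDH1 kept its call in 3 of 5 fits, and NCI-H2087 replicate 1 was among the pairs it needed.

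EHD2, an ATPase of caveolar necks, went from 64.4 and 74.0 CPM to 190.2 and 214 in NCI-H2087, from 82.6 and 80.2 to 151 and 181 in NCI-H441 and from 53.3 to 72.9 in NCI-H2110, a change of 1.12 ± 0.16 (edgeR adjusted p = 0.0290). AP2A1, a subunit of the clathrin adaptor AP-2, rose by 1.08 ± 0.16, TBC1D5, a regulator of Rab7 on endosomes, by 1.08 ± 0.17, and DENND1B, an exchange factor for Rab35, by 0.83 ± 0.14. TULP3, which carries receptors into the primary cilium, rose by 1.11 ± 0.14, with log2 ratios of 1.57 and 1.36 in the NCI-H2087 pairs, 0.83 and 0.96 in the NCI-H441 pairs and 0.84 in the NCI-H2110 pair. AP2A1, TBC1D5, DENND1B and TULP3 were picked out after their values were seen.

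**Figure D2:**
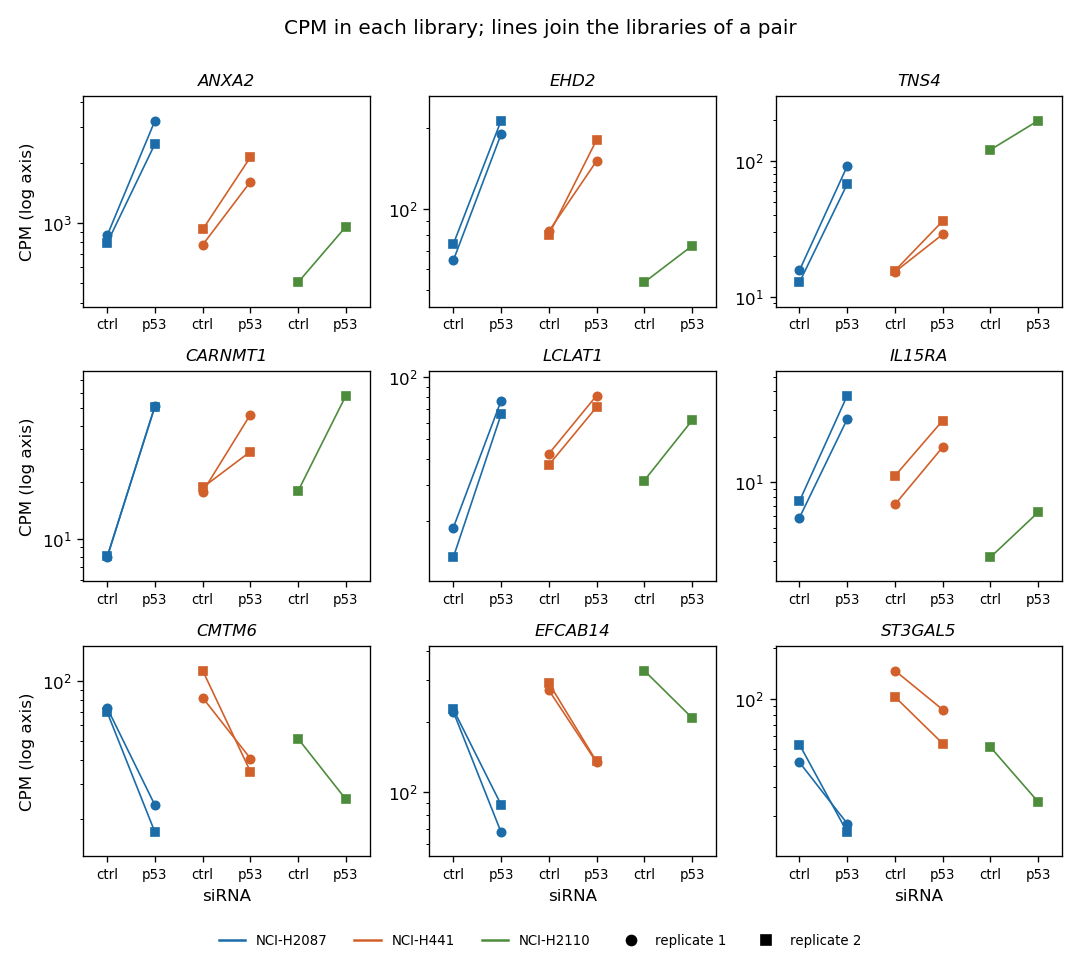
CPM on a log axis in each library for 6 genes that rose and 3 that fell; each segment joins the control siRNA and p53 siRNA libraries of a pair, with colour for the line and marker shape for the replicate. All 5 segments of a gene slope the same way, and among the genes drawn the NCI-H2087 changes are largest for CARNMT1 and TNS4.

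CARNMT1, which methylates carnosine and histidine residues of proteins, had the largest fitted rise among evenly changed genes of at least 5 CPM, 1.80 ± 0.27 (edgeR adjusted p = 0.0290). Its level went from 7.94 and 8.03 CPM to 51.3 and 50.8 in NCI-H2087, from 17.8 and 18.8 to 46.0 and 29.2 in NCI-H441 and from 17.98 to 58.1 in NCI-H2110. LCLAT1, an acyltransferase that remodels cardiolipin and phosphatidylinositol, went from 18.7 and 13.4 to 76.8 and 66.0 CPM in NCI-H2087, from 42.5 and 37.5 to 81.3 and 71.5 in NCI-H441 and from 31.6 to 61.6 in NCI-H2110. LCLAT1 rose by 1.42 ± 0.22 (edgeR adjusted p = 0.0290), and the p53 siRNA libraries of the 3 lines ended at like levels from unlike control levels. ABCB10, a transporter of the inner mitochondrial membrane, rose by 1.28 ± 0.21 (edgeR adjusted p = 0.0343), and PDHX, a component of the pyruvate dehydrogenase complex, by 1.19 ± 0.18 (edgeR adjusted p = 0.0302). UQCC6, an assembly factor of respiratory complex III singled out after its value was seen, rose by 1.04 ± 0.15, with its largest ratio, 1.37, in NCI-H441 replicate 2.

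NIPA1, a magnesium transporter, went from 11.9 and 11.95 CPM to 35.4 and 34.4 in NCI-H2087, from 18.3 and 21.5 to 35.4 and 36.2 in NCI-H441 and from 12.6 to 28.4 in NCI-H2110, and its change was 1.19 ± 0.15 (edgeR adjusted p = 0.0193). POMK, a kinase that phosphorylates the sugar chain of dystroglycan, rose by 1.15 ± 0.17 (edgeR adjusted p = 0.0290), with 1.35 and 1.82 log2 units in the NCI-H2087 pairs, 0.84 and 0.88 in the NCI-H441 pairs and 0.90 in the NCI-H2110 pair. ARSJ, whose start region is printed above, rose by 1.17 ± 0.19 (edgeR adjusted p = 0.0323), from 31.3 and 36.1 to 115 and 114 CPM in NCI-H2087, from 46.1 and 47.6 to 78.6 and 78.2 in NCI-H441 and from 10.4 to 18.2 in NCI-H2110.

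Signalling genes included a cytokine receptor and a phosphatase. IL15RA, the alpha chain that presents interleukin-15, went from 5.83 and 7.501 CPM to 26.2 and 37.5 in NCI-H2087, from 7.12 and 11.02 to 17.1 and 25.6 in NCI-H441 and from 3.19 to 6.33 in NCI-H2110. It rose by 1.60 ± 0.21 (edgeR adjusted p = 0.0206), and the arms were apart in each line. DUSP1, a phosphatase that switches off MAP kinases, went from 11.8 and 13.8 to 27.4 and 42.6 CPM in NCI-H2087, from 81.9 and 38.5 to 158.3 and 65.5 in NCI-H441 and from 50.1 to 71.4 in NCI-H2110. Its change was 1.01 ± 0.16 (edgeR adjusted p = 0.0306), but the arms overlapped in NCI-H441, where replicate 1 was higher than replicate 2 with either siRNA, and without the replicate block its adjusted p was 0.13. NDRG1, a hypoxia-responsive gene, rose by 0.94 ± 0.17 (edgeR adjusted p = 0.0446) and had an adjusted p of 0.0572 without the block. GLIPR1, a secreted or membrane-bound protein of the CAP family, rose by 1.34 ± 0.22 (edgeR adjusted p = 0.0323), with ratios of 1.84 and 1.68 in NCI-H2087 and 1.84 in NCI-H2110 but 0.48 and 0.71 in NCI-H441.

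HLA-B, a class I antigen-presenting molecule, rose by 0.87 ± 0.12 (edgeR adjusted p = 0.0206), from 27.4 and 33.8 to 56.0 and 59.2 CPM in NCI-H2087 and from 106 and 177 to 178 and 342 in NCI-H441. It was close to 0 in NCI-H2110, at 0.197 and 0.260 CPM, so its change there has little weight, and without the block its adjusted p was 0.0978. PSG1 went from 3.40 and 5.47 CPM to 10.8 and 24.0 in NCI-H2087, from 3.39 and 2.03 to 7.46 and 4.62 in NCI-H441 and from 0.276 to 1.04 in NCI-H2110. Its fitted change was 1.58 ± 0.21 (edgeR adjusted p = 0.0206). Both belong to families of near-identical copies, the HLA and PSG genes, between which counts may have been split. FAM89A rose (edgeR adjusted p = 0.0312), with ratios of 1.52 and 1.37 in the NCI-H2087 pairs and 0.91 in the NCI-H2110 pair, while at or under 0.902 CPM in all NCI-H441 libraries, and lost its call without the block (adjusted p 0.08). KLHL2, a substrate adaptor of cullin-3 ubiquitin ligases, rose by 0.97 ± 0.17 (edgeR adjusted p = 0.0385).

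Regulators of transcription and RNA were a smaller set, named after their values were seen. MITF, a melanocyte and lysosome transcription factor, rose by 0.75 ± 0.12, from 95.8 and 92.4 CPM to 176 and 193 in NCI-H2087, from 23.4 and 34.4 to 33.3 and 46.9 in NCI-H441 and from 10.1 to 18.2 in NCI-H2110. NR1D1, a nuclear receptor of the circadian clock, rose by 0.98 ± 0.16. PAWR, a protein of apoptosis, rose by 0.75 ± 0.12 and PABPC4, a poly(A)-binding protein with close paralogs, by 0.69 ± 0.11. CLOCK, another clock gene, lay just short of the threshold at 0.84 ± 0.15 (edgeR adjusted p = 0.0504).

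The falls were fewer. CMTM6 (ENSG00000091317), a membrane protein that keeps PD-L1 on the cell surface, went from 73.2 and 69.6 CPM to 23.5 and 17.1 in NCI-H2087, from 82.5 and 113 to 40.5 and 34.8 in NCI-H441 and from 51.1 to 25.1 in NCI-H2110. Its change was -1.48 ± 0.16 (edgeR adjusted p = 0.0170), at least 1 log2 unit in every pair. Without NCI-H2087 it was -1.25 with an edgeR adjusted p of 0.0134. With 1 pair left out at a time CMTM6 kept its call in 4 of 5 fits, and lost it without NCI-H2087 replicate 1. EFCAB14, an EF-hand protein, went from 221 and 226 to 67.6 and 88.6 CPM in NCI-H2087, from 273 and 292 to 134 and 135 in NCI-H441 and from 331 to 208 in NCI-H2110, a change of -1.17 ± 0.15 (edgeR adjusted p = 0.0193). ST3GAL5, the sialyltransferase that makes ganglioside GM3, went from 41.9 and 53.4 to 18.1 and 16.1 CPM in NCI-H2087, from 147 and 103 to 86.1 and 54.2 in NCI-H441 and from 51.6 to 24.4 in NCI-H2110, a change of -1.14 ± 0.14 (edgeR adjusted p = 0.0193). In all 3 genes the arms were apart in each line.

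CCDC43 fell by 1.27 on the log2 scale (SE 0.18, edgeR adjusted p = 0.0282), with ratios of -1.61 and -1.76 in the NCI-H2087 pairs, -1.04 and -1.34 in the NCI-H441 pairs and -0.58 in the NCI-H2110 pair. KLHL5, a relative of KLHL2 that moved the other way, went from 415 and 471 to 230.0 and 227 CPM in NCI-H2087, from 521 and 441.17 to 371 and 280.2 in NCI-H441 and from 86.2 to 59.5 in NCI-H2110, a change of -0.72 ± 0.12 (edgeR adjusted p = 0.0376). The 4 falls described next lost their call without the replicate block. BDH2, a cytosolic dehydrogenase, changed by -0.86 ± 0.15 (edgeR adjusted p = 0.0460, 0.0506 without the block), MEA1 by -0.83 ± 0.14 (0.0376 and 0.0763) and CHMP1B, an ESCRT-III subunit, by -0.64 ± 0.11 (0.0449 and 0.0976). ZNF737, a zinc finger gene with close copies, changed by -1.24 ± 0.21 (0.0376 and 0.055) and had 1 count against 0 in NCI-H2110.

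A call of the shared change did not always mean a change in each line. In all, 56 called genes reached 1 CPM in at least 1 library of each line, and all 56 had the same direction in the 5 pairs. Their calls were made from these same pairs, so the even direction is no separate result. Another 10 were under 1 CPM in every library of NCI-H441 and NCI-H2110, so that most of their counts were in NCI-H2087. MSRB3-AS1 had 268 and 553 counts in the NCI-H2087 controls against 2006 and 2798 with p53 siRNA, but at most 3 counts in any library of the other lines. HOXB9, a homeobox gene, had 102 and 148 against 419 and 945 counts in NCI-H2087, and ADAMTS1, a secreted metalloprotease, had 43 and 65 against 379 and 370, each with at most 1 count elsewhere. FOXL1, a forkhead factor, had 25 and 36 against 200 and 310 and DNAAF3-AS1 had 5 and 6 against 142 and 132, with 0 elsewhere. ENPP2, which makes lysophosphatidic acid, fell from 13.2 and 22.2 CPM to 1.28 and 1.77 in NCI-H2087. The others were LINC02310, EIF5A2, HES7 and HTR7. Of these, EIF5A2 also rose in NCI-H441, from 2 and 4 to 16 and 10 counts, and HTR7 in NCI-H2110, from 1 to 10 counts. Reads of an antisense gene and of the gene it overlaps cannot be told apart without strand, and whether the counting used strand is not given in the sources used here.

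PRSS3, a trypsinogen gene, and ZNF493 were called without an even direction. PRSS3 went from 58.3 and 76.9 to 185 and 299 CPM in NCI-H2087, with 0.815 to 1.47 CPM in NCI-H441 and 1 count against 0 in NCI-H2110. ZNF493 went from 14.95 and 16.9 to 5.13 and 5.87 CPM in NCI-H2087 and from 10.6 and 9.51 to 6.48 and 4.75 in NCI-H441, with at most 0.130 CPM in NCI-H2110. Both have close paralogs.

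Evenness and the test picked overlapping but unequal sets. Counting direction alone, 1112 genes (6.19%) were higher and 1244 (6.92%) lower in all 5 pairs. A change of at least 0.5 log2 units in every pair was met by 49 genes upward (0.273%) and 31 downward (0.172%). Of these 80, the test called 32, 26 of them rises and 6 falls. The other 48 had a median adjusted p of 0.135, and 38 of them had a mean level under 5 CPM. The 10 at 5 CPM or more, which are all named next, were chosen by these values.

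CLDN12, a claudin of tight junctions, went from 92.4 and 112 to 525 and 598 CPM in NCI-H2087, from 149 and 140.2 to 258 and 216 in NCI-H441 and from 76.5 to 142 in NCI-H2110 (1.44 ± 0.29, edgeR adjusted p = 0.0605). AXL, a receptor tyrosine kinase, went from 24.4 and 27.0 to 106 and 146 CPM in NCI-H2087, from 1.76 and 2.37 to 2.58 and 3.52 in NCI-H441 and from 13.5 to 21.6 in NCI-H2110 (1.38 ± 0.29, edgeR adjusted p = 0.0745). Both were higher in every p53 siRNA library than in the controls of its line and did not pass the test. SNAI2, a repressor of epithelial genes, had ratios of 1.86 and 1.21 in the NCI-H2087 pairs, 0.69 and 0.68 in the NCI-H441 pairs and 0.68 in the NCI-H2110 pair (edgeR adjusted p = 0.0574), though with 0.157 and 0.303 CPM in NCI-H2110. B3GNT5, GALNT1, TTC9 and the glucose transporter SLC2A3 were the other rises of this set, with fitted values of 1.27, 1.05, 0.87 and 0.72. Downward, the set held IFIT1, an interferon-induced RNA-binding protein (-1.08 ± 0.20, edgeR adjusted p = 0.0587), ZNF708 (-1.18) and SERF1B (-0.63), the last 2 of which have close copies.

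**Figure D3:**
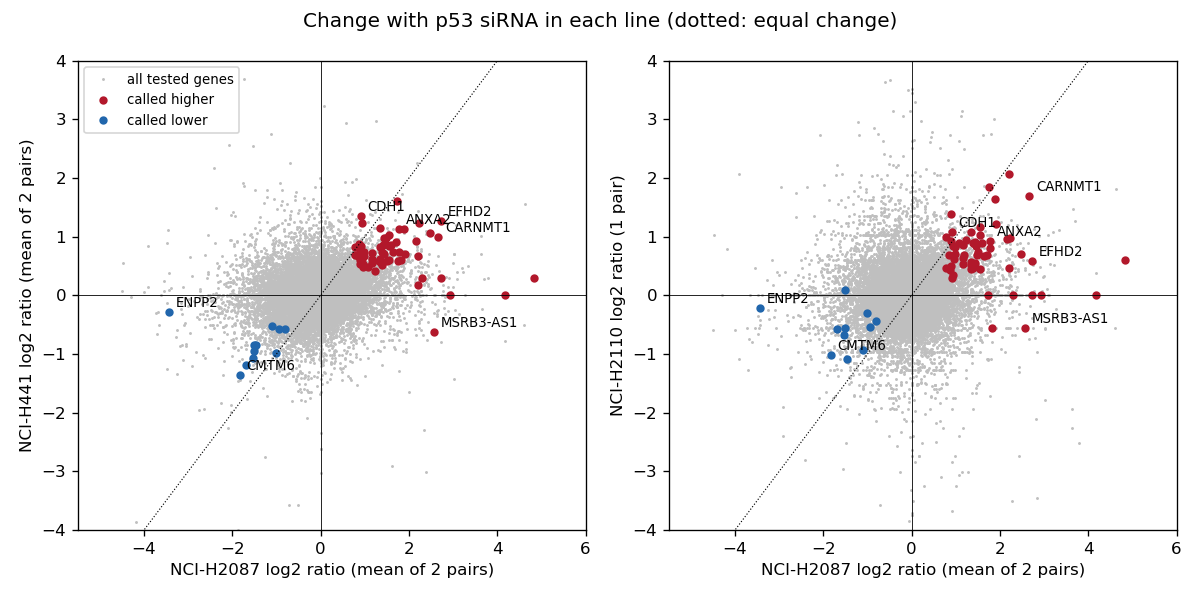
Log2 ratio with p53 siRNA in NCI-H2087 (horizontal, mean of 2 pairs) against NCI-H441 (left, mean of 2 pairs) and NCI-H2110 (right, 1 pair) for all tested genes within the axes, with called genes in colour and equal change dotted. Most called genes lie between the dotted line and the NCI-H2087 axis, and most of those under 1 CPM in both other lines lie on or near that axis.

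Shared genes still differed in size between lines. A test of unequal change across the 3 lines, in a fit with each pair and 1 siRNA change per line, called 1460 genes (8.12%), among them 20 of the 71 called for the shared change, 19 rises and 1 fall. EFHD2 changed by 2.73 ± 0.15 in NCI-H2087 cells, by 1.28 ± 0.14 in NCI-H441 cells and by 0.58 in NCI-H2110 cells (edgeR adjusted p of the difference 0.000209). TNS4 changed by 2.47 ± 0.15, 1.07 ± 0.15 and 0.71 (0.000561), and LCLAT1 by 2.17 ± 0.15, 0.93 ± 0.14 and 0.97 (0.00295). CARNMT1 changed by 2.67 ± 0.19, 1.01 ± 0.18 and 1.69 (0.00328). For CDH1, PTK2 and NIPA1 the difference did not pass the test, with edgeR adjusted p of 0.416, 0.628 and 0.134. This fit has 2 residual degrees of freedom: without the pairs as a block 15 genes differed and 0 of the called genes were among them, and without NCI-H441 replicate 2 the count was 96.

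Called in 2 lines, genes were followed in the third. Fitted without NCI-H2110, 14 genes rose and 8 fell, and 10 of the 14 (71.4%) and 7 of the 8 (87.5%) went the same way in the NCI-H2110 pair, against 45.7% and 49.5% of all genes tested. Fitted without NCI-H441, 127 rose and 24 fell, and 65 (51.2%) and 13 (54.2%) kept that direction in both NCI-H441 pairs, against 30.3% and 28.7% of all. Fitted without NCI-H2087, 16 rose and 5 fell, and 11 (68.8%) and 4 (80.0%) kept it in both NCI-H2087 pairs, against 33.8% and 39.4% of all. The median change of these in the unused NCI-H2087 pairs was 1.503 for the 16 and -1.53 for the 5. These shares were not tested. Of the 31 genes named by the selection rule, 11 were called from NCI-H441 and NCI-H2110 alone: CARNMT1, EFHD2, IL15RA, TNS4, LCLAT1, ANXA2, NIPA1, CDH1, CMTM6, EFCAB14 and ST3GAL5. The 31 were chosen in the fit of all libraries, which holds these same pairs, so these 11 calls are not independent of that choice.

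Genes that intact p53 activates went in both directions. Of 38 such genes, 0 were called by edgeR (4 higher and 6 lower had an unadjusted p below 0.05). In all 5 pairs 2 (5.26%) were higher and 3 (7.89%) lower, near the 6.19% and 6.92% of all genes tested. The median change was -0.08, near the -0.03 of all genes tested. CDKN1A, the p21 cell cycle inhibitor, went from 20.2 and 19.8 to 78.7 and 101 CPM in NCI-H2087, from 81.8 and 69.1 to 91.7 and 94.9 in NCI-H441 and from 59.1 to 117 in NCI-H2110. It was higher in every pair without passing the test (1.17 ± 0.29, edgeR adjusted p = 0.105). PLK2, a polo-like kinase, had 0.60 ± 0.12 (edgeR adjusted p = 0.0605). In a list of genes that have been described as raised by mutant p53, 0 of 28 were called by edgeR (6 higher and 0 lower had an unadjusted p below 0.05), 5 were higher in all pairs and 0 lower, and the median was 0.01.

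Lists of adhesion and signalling genes had medians above that of all genes. Of 35 actin and focal adhesion genes 3 rose (TNS4, EFHD2 and PTK2), 0 fell, and 10 (28.6%) were higher and 0 lower in all 5 pairs, with a median of 0.27 in the shared fit, 0.56 in NCI-H2087, 0.264 in NCI-H441 cells and -0.01 in NCI-H2110 cells. The other members higher in every pair, among them FLNA (0.74, edgeR adjusted p = 0.091), did not pass the test. Of 20 integrin and laminin genes 1 rose (ITGB4), and 7 (35.0%) were higher and 0 lower in all 5 pairs, with LAMB3 at 0.91 and CD44 at 0.62 (edgeR adjusted p = 0.0746 and 0.0605). Their median was 0.385 in NCI-H2087 and 0.204 in each of the other lines. Of 24 output genes of the ERK pathway 1 rose (DUSP1), and 8 (33.3%) were higher and 0 lower in all pairs, with a median of 0.995 in NCI-H2087 but 0.05 in NCI-H441 cells and 0.09 in NCI-H2110 cells. Over all tested genes 0.328% were called higher and 0.0667% lower, and 6.19% were higher and 6.92% lower in all 5 pairs. The lists were drawn up with earlier results of these data known and were not tested as sets. With library totals in place of TMM the medians of the actin, integrin and ERK lists were 0.182, 0.226 and 0.396, against -0.117 for all genes.

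Other lists had 1 called gene or none. Over all 17978 genes tested, 0.328% were called higher and 0.0667% lower, and 6.19% were higher and 6.92% lower in all 5 pairs. At an unadjusted edgeR p below 0.05, 1515 of them were higher and 1314 lower. Of 26 hypoxia and glycolysis genes NDRG1 rose and 6 were higher in all pairs, of 23 annexins and S100 genes ANXA2 rose and 4 were higher, and of 25 NF-kB genes IL15RA rose and 5 were higher, with 0 lower in each list. Of 18 mesenchymal genes edgeR called 0 (7 higher at an unadjusted p below 0.05) and 5 were higher in all pairs. Of 20 YAP-responsive genes it called 0 (8 higher and 1 lower unadjusted) and 5 were higher in all pairs, and of 15 keratins 0 (9 and 1) and 2. Of 20 caveolar and EHD membrane genes EHD2 rose, with 6 higher and 2 lower in all pairs. Junction genes were split: of 32, CDH1 rose, 4 (12.5%) were higher and 4 (12.5%) lower, and the median was 0.01. The ribosomal protein list had a median of 0.45 in NCI-H2087 and 0.17 in NCI-H441 but -0.35 in NCI-H2110, with 0 of 43 called by edgeR and 0 at an unadjusted p below 0.05. Of 36 mitosis genes 0 were called and 0 were higher and 1 lower in all pairs, and of 32 DNA replication genes 0 were called and 2 were higher and 1 lower, with 1 and 2 genes at an unadjusted p below 0.05.

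The 33 interferon-stimulated genes had a median change of -0.78 in NCI-H2087, against 0.03 in NCI-H441 cells and -0.02 in NCI-H2110 cells. By edgeR 0 of the 33 were called, 13 had an unadjusted p below 0.05 downward, and IFIT1 was lower in all 5 pairs. Of 19 ganglioside synthesis genes ST3GAL5 fell, and 4 (21.1%) were lower and 0 higher in all pairs. Over all 17978 genes tested, 6.92% were lower and 6.19% higher in all pairs, and 0.0667% were called lower. At an unadjusted edgeR p below 0.05, 1314 of them were lower. Of 8 CMTM and PD-1 ligand genes CMTM6 fell, and CMTM8 (-0.36, edgeR adjusted p = 0.179) was the other lower in all pairs. CD274, which encodes PD-L1, went from 34.5 and 38.3 to 103 and 113 CPM in NCI-H2087, but from 97.2 and 143 to 111 and 122 in NCI-H441 and from 30.3 to 32.5 in NCI-H2110 (edgeR adjusted p = 0.282). Of 20 KLHL and cullin-3 genes KLHL2 rose and KLHL5 fell. Of 12 alveolar type 2 markers 0 were called by edgeR (4 lower at an unadjusted p below 0.05) and 0 were even in direction, with a median of -1.95 in NCI-H2087, 0.24 in NCI-H441 cells and -0.32 in NCI-H2110 cells.

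**Figure D4:**
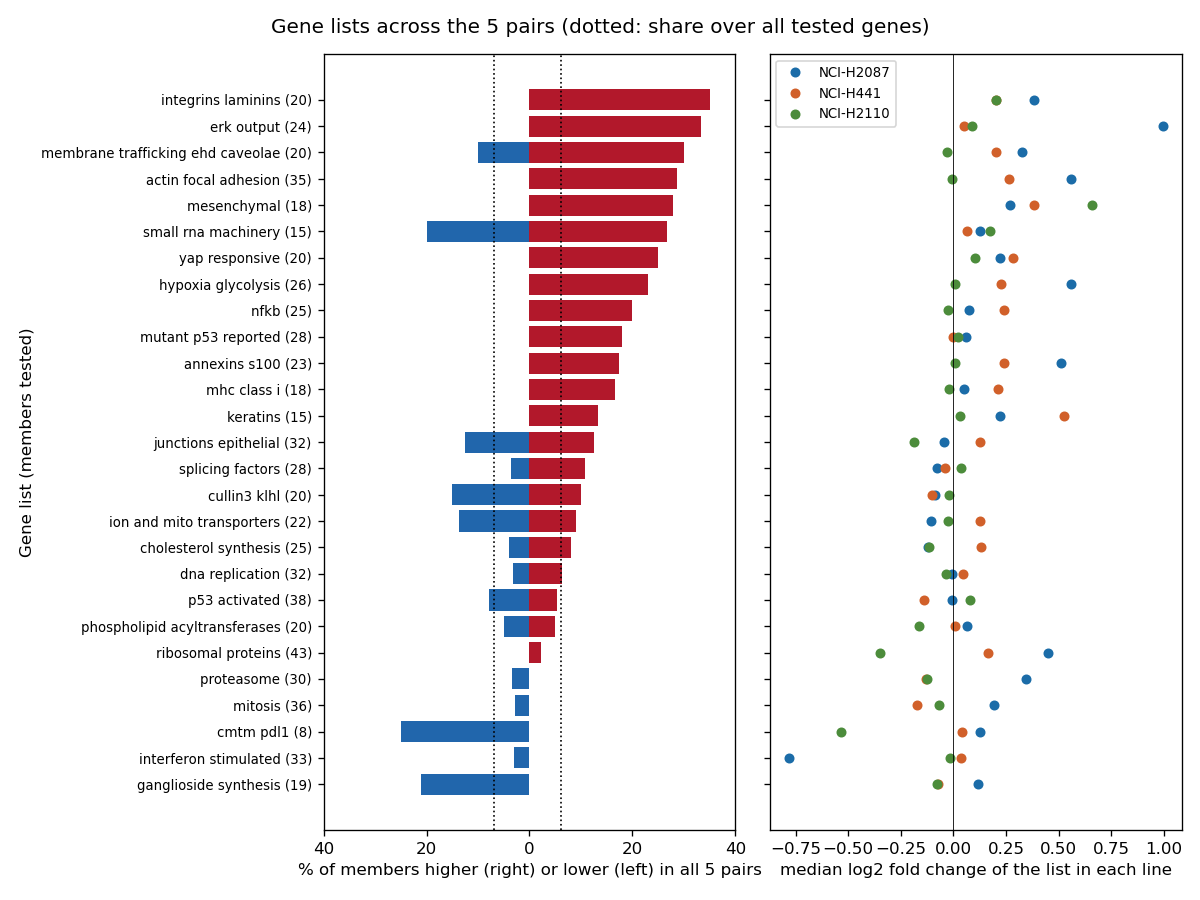
Left, the percent of each list's tested members (number in brackets) that were higher (right, red) or lower (left, blue) in all 5 pairs, with the shares over all tested genes, 6.19% and 6.92%, dotted. Right, the median log2 fold change of each list in each line; the ERK list stands at 0.995 in NCI-H2087 and near 0 in the other lines.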

How the data were processed

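RNA from 10 libraries of 3 lines was sequenced by the submitters. The authors deposited 1 table of whole-number counts per gene, not normalized; per the submitters' processing notes Bowtie2, RSEM 1.2.12 and hg19 were used, with no role given, and whether the counts are rounded RSEM estimates is not stated. Symbols came from a names table (51959 IDs) and GENCODE 29 (342 more), 5435 IDs stayed unnamed, and 28408 IDs had 0 counts in every library. The filterByExpr function, given the 6 combinations of line and siRNA, kept 17978 genes with 99.96% of counts. Libraries were scaled by TMM and fitted in R 4.3.3 with edgeR 4.0.16 as a quasi-likelihood model of pair and siRNA (4 residual degrees of freedom), with two-sided tests and Benjamini-Hochberg adjustment over all 17978 genes. Standard errors come from the fold change and its F statistic, and the common biological coefficient of variation was 19.7%.

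Libraries were paired by line and replicate number as the labels give them. As a check of the pairing, the replicate 1 to replicate 2 difference of 9332 genes was compared between control and p53 siRNA libraries, and Pearson's r was 0.534 for NCI-H2087 and 0.595 for NCI-H441. Named were the 15 rises and up to 12 falls with the largest fitted change among called genes of at least 5 CPM with an even direction. Only 9 falls qualified, and all of them were named. Also named were the 5 rises and 5 falls with the largest smallest change, up to 3 called members of each list and up to 5 called genes with the smallest p for a difference between lines, 31 genes in all. Every other gene given values, within lists too, was chosen after its values were seen, as were the groupings by role. The comparison and the 33 gene lists (751 entries, 3 without a gene in the table) were chosen with earlier results of these data known. Alternatives used limma 3.58.1, DESeq2 1.42.0, other scalings, filters, weights of lines and left-out pairs. The fits were tested on simulated data, where false calls took a larger share of the calls than the nominal one, most of all for the difference between lines. Some genes are not reported here, and counts of called genes include them.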

Additional observations from a re-analysis of the deposited data

Results flagged for a closer look

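BDH2 had a log2 ratio of -0.302 in the NCI-H2110 pair, far from its other 4 pairs, which lay between -0.96 and -1.06. Among the 31 named genes, each with 5 pairs checked for a value that stands apart, it was the 1 found, and chance gives about 1 such group in 20.

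The change of 12 named genes differed between the 3 lines by the F test of unequal change (edgeR, adjusted over 17978 genes, 2 residual degrees of freedom). The adjusted p was 0.000209 for EFHD2, 0.000561 for TNS4, 0.00295 for LCLAT1, 0.00328 for CARNMT1 and 0.00917 for ARSJ. It was 0.0115 for GLIPR1, 0.019 for ABCB10, 0.0196 for IL15RA, 0.0232 for EHD2, 0.0327 for ANXA2, 0.0407 for PDHX and 0.0425 for NDRG1. In 11 of these NCI-H2087 had the largest change, and GLIPR1 was the exception, with 1.76 in NCI-H2087 and 1.88 in NCI-H2110. Without the pairs as a block 0 of the called genes differed between lines.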

How the results depend on the processing

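No named gene changed direction under the alternatives run, but all of these reuse libraries that chose the genes. With library totals 9 of the 33 list medians changed sign. Among them were those of the mutant p53 list (0.01 to -0.0977), the junction list (0.01 to -0.0753) and the DNA replication list (0.01 to -0.0803). The 71 called genes (59 higher, 12 lower) became 1385 (878 and 507) without the filter on low counts and 627 (446 and 181) with DESeq2's Wald test. They became 1633 (978 and 655) with the lines weighted equally, in a fit with 1 siRNA change per line and fewer residual degrees of freedom. The count was 21 (16 and 5) without NCI-H2087 and 151 (127 and 24) without NCI-H441, and the cause of these shifts was not tested. Leaving out 1 pair at a time gave 1 to 64 genes, 0 to 57 of them higher and 1 to 8 lower; without NCI-H2087 replicate 1 the single call was lower. Of the 71, 58 were among the 71 called with no replicate block, 69 among the 72 with DESeq2 size factors, 52 among the 53 with library totals and 55 among the 65 with limma-voom. Called rises were 83.1% of calls, 79.2% with library totals and 63.4% without the filter. The median change of all genes was -0.03 and moved to -0.12 with library totals.

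The count of genes differing between lines, 1460, became 2651 without the filter, 15 with no replicate block, and 96 to 2239 with 1 pair left out. The 2356 genes of even direction became 3002 to 4771 over 4 pairs, as fewer pairs ask less, 1357 to 2295 of them higher and 1523 to 2476 lower; with library totals 1902 were lower and 805 higher. The alternatives that left out pairs for these 2 counts were chosen after seeing the data. Of the 31 named genes, 23 kept their call with no replicate block, 22 with limma-voom, 31 with DESeq2's Wald test, 0 without NCI-H2087 replicate 1 and 8 without the NCI-H2110 pair. Depth limits genes near 0 in a line, and 1 pair in NCI-H2110 gives no spread of its own.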
